A study of Mus musculus with 22 samples.

Results

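The control lungs of this mouse airway study came from animals that breathed only phosphate-buffered saline (PBS) aerosol, and they were collected in a short and in a long version of the protocol. They were taken by their labels, as the 3 long PBS and 3 short PBS libraries among 22 lung RNA libraries. Short PBS mice were BALB/c mice injected into the peritoneum when 49 days old, with a booster when 63 days old, and exposed to PBS on 3 successive days from 70 days of age. Long PBS mice had the same strain and injections, and from 70 days of age received PBS 3 times a week for 4 weeks, which the titles give as 30 days. The treatment labels call the PBS mice sensitized, whereas the titles call them normal, and the labels do not name what was injected. Age, the number of exposures and any collection batch therefore changed together between the 2 groups and cannot be told apart. The other 16 libraries came from mice given methacholine (MCh), which constricts the airways, or ovalbumin (OVA), a widely used allergen. They were also made in a short and a long protocol, with 4 libraries in each of these 4 groups. The short MCh titles give 4 days of challenge, whereas their other labels give 3 successive days. Titles call the MCh mice normal and the OVA mice mice with allergic asthma. The question put to the PBS lungs was how far control tissue itself differed between the protocols.

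Several gene programs are known to move in lungs without any allergen. Glucocorticoid hormones, released by the adrenal gland with stress and with the time of day, bind a receptor that switches on genes such as Fkbp5, Tsc22d3 and Per1. Heat shock factor 1 switches on cytosolic chaperones, which hold or refold other proteins, when proteins are damaged or handling stress is sensed. The circadian clock is a loop in which Arntl and Npas2 drive the Per, Cry and Nr1d genes, which in turn restrain them, so that the opposing arms of the loop peak at different hours. Retnla, Chil3 and some of the eosinophil-associated ribonucleases are products of macrophages or epithelium exposed to type 2 cytokines.

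Expression was given as FPKM, fragments per kilobase of transcript scaled to library size, for 20938 genes. The 6 PBS libraries listed 22.5% to 24.1% of genes at 0. The summed FPKM was 479644 to 484888 in long PBS and 493054 to 514754 in short PBS, so the groups did not overlap. Deviations of genes from their mean over all libraries followed transcript length with a Spearman rho of 0.364 to 0.40 in long PBS and of -0.037, 0.228 and 0.267 in short PBS. The lung epithelial genes Sftpc, Sftpb, Ager and Scgb1a1 were detected in all 6, and the Y-linked genes Ddx3y, Kdm5d, Eif2s3y and Uty were listed at 0 in all 6. Titles number the libraries as biological replicates. In these bulk libraries fewer cells of a type and less RNA per cell cannot be told apart.

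Of 15682 genes tested, 26 differed between long and short PBS at an adjusted p under 0.05 (limma on log2(FPKM + 0.5), Benjamini-Hochberg adjustment), which is 0.166% of the genes. Of these, 23 (0.147%) were lower and 3 (0.0191%) were higher in the long protocol, and in all 26 the 3 long lungs lay on the same side of all 3 short lungs. The falls were led by the stress chaperones Hspa1b and Hspa1a and by genes that glucocorticoids induce, and the rises were Retnla, Rnase2a and Wt1. All 26 kept their sign under every alternative run, but the count leaned on few libraries and on how the spread was pooled. It was 0 without long replicate 2 or without short replicate 3 (limma, 518 and 708 genes at an unadjusted p under 0.05), 7 without long replicate 1, 5 and 14 without short replicates 1 and 2, and 34 without long replicate 3. With array weights 1655 genes passed, 1107 of them higher, and in a fit of the 6 PBS libraries alone 168 passed, 116 higher and 52 lower, so the split between higher and lower turned with these choices. All long lungs lay above all short lungs in 2971 genes (18.9%) and below in 1437 (9.16%).

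**Figure D1:**
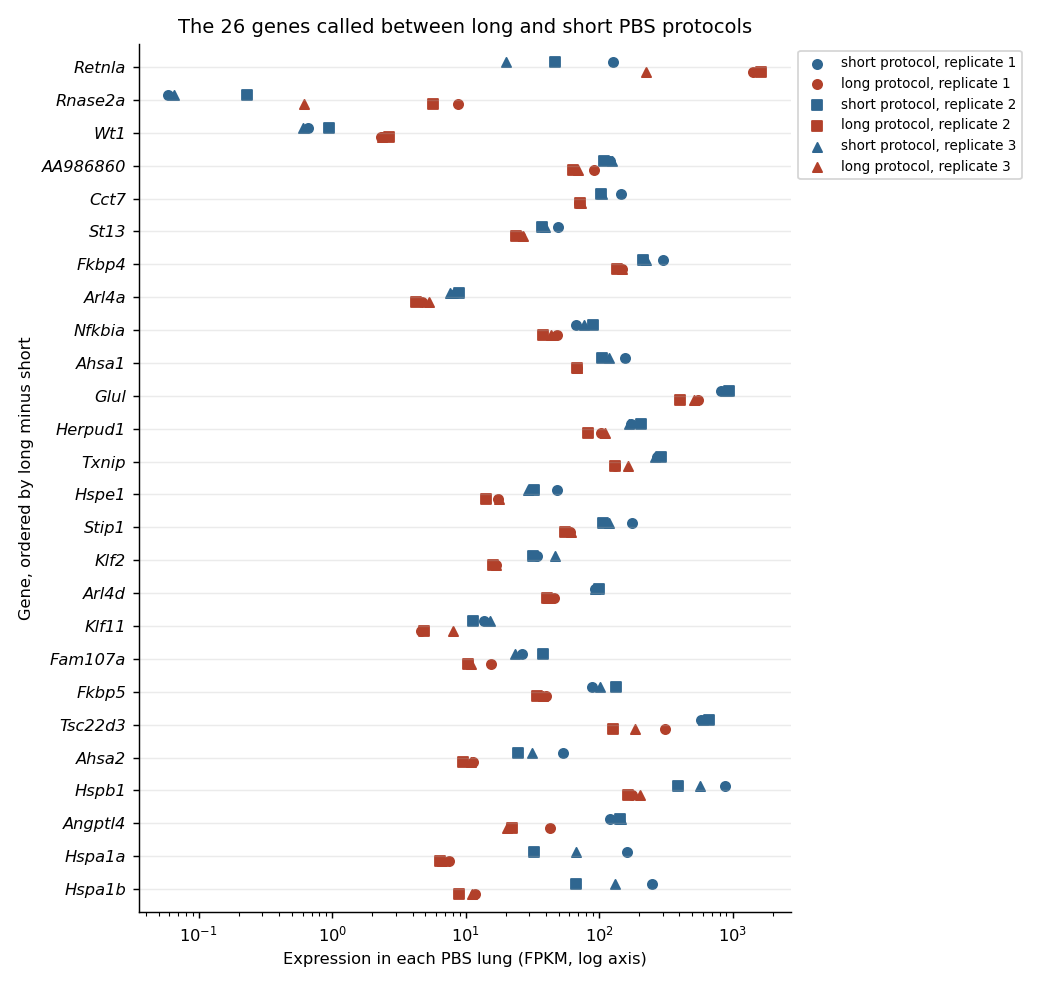
FPKM of the 26 called genes in each of the 6 PBS lungs on a log axis, with long lungs in red and short lungs in blue and a symbol for each replicate. The red and blue points of a gene do not overlap, and the long lungs of Hspa1b sit between 8.88 and 11.7 FPKM while the short lungs sit between 67.7 and 248 FPKM.

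Hspa1b (mm10, chromosome 17, 34956436 to 34959238, minus strand), an inducible cytosolic chaperone of the 70-kilodalton class, was at 11.7, 8.88 and 11.2 FPKM in long replicates 1 to 3 and at 248.1, 67.7 and 131 FPKM in short replicates 1 to 3. The long lungs were close to each other, and the short lungs were all higher and spread several-fold. The difference was -3.57 ± 0.58 (log2 ± SE, adjusted p = 0.0151, limma). Its neighbour Hspa1a (chromosome 17, 34969190 to 34972156), a near-identical copy, stood at 7.55, 6.39 and 6.70 FPKM against 160.8, 32.3 and 66.9 FPKM, and fell by 3.27 ± 0.61 (log2). Reads of such copies can be split between them in counting, so the share of each is uncertain.

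Hspb1 (chromosome 5, 135887919 to 135889563), a small heat shock protein that holds unfolding proteins and protects actin, was at 175, 163 and 204 FPKM in long and 874, 392 and 573 FPKM in short lungs. Again every short lung was above every long lung, with short replicate 1 highest and short replicate 2 lowest. The fall was 1.69 ± 0.31 on the log2 scale (adjusted p = 0.0290, limma). Stip1, which passes clients from Hsp70 to Hsp90, fell by 1.13 ± 0.22, the mitochondrial chaperonin partner Hspe1 fell by 1.10 ± 0.20, the Hsp90 activator Ahsa1 fell by 0.86 ± 0.16 and the Hsp90-bound immunophilin Fkbp4 fell by 0.75 ± 0.13 (all log2). These are the 7 called members of a list of 24 heat shock chaperones, against 0.147% of all genes called lower. No member was called higher.

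In 18 of the 24 listed chaperones every long lung lay below every short lung, and in 1, the transcription factor Hsf2, every long lung lay above; over all genes these shares were 9.16% and 18.9%. The list had a median difference of -0.85 (log2), against 0.05 over all genes. Members that missed the threshold included Hsph1, at 67.4, 52.02 and 72.3 FPKM against 262, 143 and 169 FPKM (-1.54 ± 0.35, adjusted p = 0.0829, limma), and the constitutive chaperone Hspa8, at 2483, 2184 and 2375 FPKM against 6044, 3417 and 3897 FPKM (-0.88 ± 0.20, adjusted p = 0.0793, limma). The resident chaperone of the endoplasmic reticulum, Hspa5, had a difference of 0.02 ± 0.15, and Hsf1 itself 0.06 ± 0.25. Within the short group the list's median against the group mean was 0.41 in replicate 1, -0.25 in replicate 2 and -0.10 in replicate 3, whereas the 3 long lungs lay between -0.93 and -0.76. Also called were genes that act with these chaperones and were named after their values were seen: Ahsa2, an Hsp90 activator (-1.66 ± 0.30), St13, an Hsp70 co-chaperone (-0.70 ± 0.13) and Cct7, a chaperonin subunit (-0.69 ± 0.12).

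For Ahsa2 (chromosome 11, 23487882 to 23498030) the transcript table separated 3 forms. Form NM_172391 was at 4.84, 2.13 and 3.04 FPKM in long and 46.7, 21.9 and 27.2 FPKM in short lungs. The form NM_001290654 was at 2.80, 2.88 and 3.19 FPKM against 3.82, 2.58 and 1.93 FPKM, with overlapping groups. The form NM_001290655 was at 4.14, 4.87 and 5.03 FPKM against 4.69, 0.954 and 3.33 FPKM, also with overlapping groups but a higher mean in long lungs. The gene's fall thus lay in 1 of its 3 annotated forms, as a description without a test.

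Promoters of called chaperones that held a heat shock element, the site of heat shock factors, are shown so that the element can be read in them. RefSeq promoter windows (GRCm38.p6, 250 bases before the annotated start, read 5′ to 3′ in the direction of the gene) were searched for GAANNTTC and TTCNNGAA. Each of these reads the same on both strands, and the 2 forms can overlap. Capitals mark the matches.
Hspa1b, chr17:34959239-34959488, minus strand: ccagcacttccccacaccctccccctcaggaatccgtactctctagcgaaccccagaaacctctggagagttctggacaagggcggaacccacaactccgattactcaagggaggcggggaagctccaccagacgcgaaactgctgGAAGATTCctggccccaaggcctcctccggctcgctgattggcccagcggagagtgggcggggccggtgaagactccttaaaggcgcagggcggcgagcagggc
Hspb1, chr5:135887669-135887918, plus strand: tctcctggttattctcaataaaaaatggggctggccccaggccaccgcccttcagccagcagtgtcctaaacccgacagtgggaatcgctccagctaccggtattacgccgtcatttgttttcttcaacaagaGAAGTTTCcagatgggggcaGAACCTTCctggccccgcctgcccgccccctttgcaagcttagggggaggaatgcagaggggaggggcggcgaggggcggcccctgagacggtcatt
Hspe1, chr1:55087898-55088147, plus strand: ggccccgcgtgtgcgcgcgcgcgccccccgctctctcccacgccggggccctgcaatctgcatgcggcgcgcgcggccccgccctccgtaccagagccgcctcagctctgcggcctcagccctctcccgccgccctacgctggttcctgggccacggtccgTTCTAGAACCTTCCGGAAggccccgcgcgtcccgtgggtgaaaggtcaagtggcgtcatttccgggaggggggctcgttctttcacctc
Fkbp4, chr6:128438657-128438906, minus strand: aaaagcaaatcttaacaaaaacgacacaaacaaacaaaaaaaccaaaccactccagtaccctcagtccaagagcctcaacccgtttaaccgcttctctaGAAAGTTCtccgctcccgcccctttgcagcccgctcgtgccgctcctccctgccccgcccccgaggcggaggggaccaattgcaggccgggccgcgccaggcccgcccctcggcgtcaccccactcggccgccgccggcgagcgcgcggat
In Hspa1b the match lay 104 to 97 bases before the start, and the window of Hspa1a was identical to it at 247 of 250 bases and held the same match. In Hspb1 there were 2 separate matches, 117 to 110 and 97 to 90 bases before the start, and in Hspe1 matches of both forms ran into each other. Of the 21 genes called lower that had a window, these 5 (Hspa1a, Hspa1b, Hspb1, Hspe1 and Fkbp4) held an element of either form. The windows of Stip1, Ahsa1, Ahsa2 and Cct7, which were called as well, held none. Counted by window, 5 of 26 held it among the genes called lower, 10 of 25 in the chaperone list and 4218 of 32851 (12.8%) in all RefSeq windows. The 10 include overlapping windows of Hsph1 that hold the same site. They also include overlapping windows of Hspd1 and Hspe1, on opposite strands, that share 1 stretch of matches. Both of these genes enter the count by gene as well. Counted by gene, 5 of 21 called lower, 9 of 19 chaperones and 1531 of 12376 tested (12.4%) held it. A match describes the letters and does not show a bound site.

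The genes induced by glucocorticoids made the other large group. Angptl4 (chromosome 17, 33773750 to 33781830), a secreted inhibitor of lipoprotein lipase, was at 43.2, 22.4 and 20.6 FPKM in long and at 122, 143 and 147 FPKM in short lungs, and fell by 2.31 ± 0.33 (log2, adjusted p = 0.00536, limma). Fkbp5 (chromosome 17, 28399094 to 28517527), a co-chaperone that dampens the glucocorticoid receptor, was at 40.2, 34.3 and 38.1 FPKM against 89.2, 134 and 102 FPKM, and fell by 1.4996 ± 0.2109 (log2). Here short replicate 2 was highest, where in the chaperones it had been lowest. Tsc22d3 (chromosome X, 140539528 to 140600659), the leucine zipper protein GILZ through which glucocorticoids act against inflammation, was at 314, 127 and 187 FPKM against 578, 664 and 596 FPKM, a fall of 1.64 ± 0.32 (log2, adjusted p = 0.0410, limma).

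Tsc22d3 has 2 forms in the transcript table, and each had every long lung below every short lung. Form NM_010286 was at 134, 51.5 and 76.2 FPKM in long and 243, 283 and 247 FPKM in short lungs, and form NM_001077364 at 5.40, 5.46 and 7.04 against 13.5, 11.1 and 17.9 FPKM. Txnip, which binds thioredoxin and limits glucose uptake, fell by 0.95 ± 0.17, and Nfkbia, the inhibitor that holds NF-kappa-B in the cytoplasm, fell by 0.84 ± 0.17 (log2). In all, 5 of 22 listed glucocorticoid-responsive genes were called, all lower, against 0.147% of all genes called lower. In 16 of the 22 every long lung was below every short lung, against 9.16% of all genes, and in none was it above. The list's median was -0.86 (log2).

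Among members that missed the threshold, Pdk4, a kinase that turns off pyruvate dehydrogenase, was at 10.1, 5.76 and 5.81 FPKM against 21.6, 38.2 and 18.8 FPKM (-1.76 ± 0.42, adjusted p = 0.107, limma). Hif3a was at 9.72, 5.89 and 8.09 FPKM against 14.7, 30.8 and 27.9 FPKM (-1.53 ± 0.46, adjusted p = 0.320, limma). Not every known target followed: the kinase Sgk1 had -0.22 ± 0.16, and the groups overlapped. Called outside the list, Fam107a, an actin-bound stress protein (-1.22 ± 0.23), and Glul, glutamine synthetase (-0.88 ± 0.14), are also known as glucocorticoid-induced and were named after their values were seen. Glul was at 547, 404 and 512 FPKM in long and 822, 944 and 902 FPKM in short lungs.

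The palindromic glucocorticoid response element was written as GNACA and TGTNC with any 3 bases between them, which reads the same on both strands. It stood in the windows of 2 genes called lower. Their RefSeq sequences (GRCm38.p6) are given with the element in capitals.
Fam107a, chr14:8309778-8310027, minus strand: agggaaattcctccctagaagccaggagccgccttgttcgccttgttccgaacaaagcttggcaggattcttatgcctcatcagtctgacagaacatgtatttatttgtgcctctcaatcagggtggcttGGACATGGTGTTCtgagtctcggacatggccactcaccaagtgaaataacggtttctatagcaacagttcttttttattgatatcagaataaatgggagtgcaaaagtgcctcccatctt
Txnip, chr3:96557707-96557956, plus strand: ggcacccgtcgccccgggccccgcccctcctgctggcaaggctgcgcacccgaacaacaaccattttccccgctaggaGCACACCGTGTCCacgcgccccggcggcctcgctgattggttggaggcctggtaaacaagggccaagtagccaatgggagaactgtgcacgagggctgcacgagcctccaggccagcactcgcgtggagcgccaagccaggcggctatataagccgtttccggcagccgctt
The match lay 120 to 108 bases before this start of Fam107a, which has 3 annotated starts, and 172 to 160 bases before that of Txnip. Among genes called lower 3 of 26 windows held the element, among the listed glucocorticoid-responsive genes 4 of 30, and in all RefSeq windows 127 of 32851 (0.387%). Of the 3, 2 are overlapping windows of Fam107a that hold the same site. Counted by gene, 2 of 21 called lower, 4 of 20 listed and 46 of 12376 tested (0.372%) held it. Neither Fkbp5 nor Tsc22d3 had these letters within the 250 bases, which says nothing of sites elsewhere.

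Immediate early genes, which are transcribed within minutes of a stimulus, had 1 called member of 25, against 0.147% of all genes called lower. Klf2 (chromosome 8, 72319033 to 72321656), a zinc finger factor kept on in endothelium by flow, was at 16.9, 15.96 and 17.0 FPKM in long and 34.2, 31.7 and 46.9 FPKM in short lungs, a fall of 1.13 ± 0.16 (log2, adjusted p = 0.00536, limma). Of 25 listed genes, 16 had every long lung below every short lung and 1, Egr2, had it above (9.16% and 18.9% of all genes), with a median of -0.45 (log2). Fos was at 8.18, 8.05 and 7.41 FPKM against 13.9, 17.1 and 18.6 FPKM (-1.01 ± 0.35, adjusted p = 0.510, limma). Klf4 (-0.74 ± 0.16, adjusted p = 0.0605) and Maff (-0.86 ± 0.19, adjusted p = 0.0637) came nearer the threshold in the same limma fit, whereas Egr1 had -0.37 ± 0.44.

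The remaining genes called lower were Arl4d, Arl4a, Klf11, Herpud1 and AA986860. Arl4d, a small GTPase of the ARF family (chromosome 11, 101665541 to 101667832), was at 45.7, 40.8 and 41.1 FPKM against 93.1, 99.7 and 93.8 FPKM, with narrow groups far apart, and fell by 1.16 ± 0.18 (log2, adjusted p = 0.0128, limma). Its relative Arl4a fell by 0.75 ± 0.15, Klf11, a zinc finger repressor, fell by 1.17 ± 0.23, and Herpud1, a membrane protein of the endoplasmic reticulum degradation pathway, fell by 0.88 ± 0.15 (log2). Herpud1 was the only called gene among 21 of the endoplasmic reticulum folding list, against 0.147% of all genes called lower. The last gene called lower, AA986860, had -0.67 ± 0.12.

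**Figure D2:**
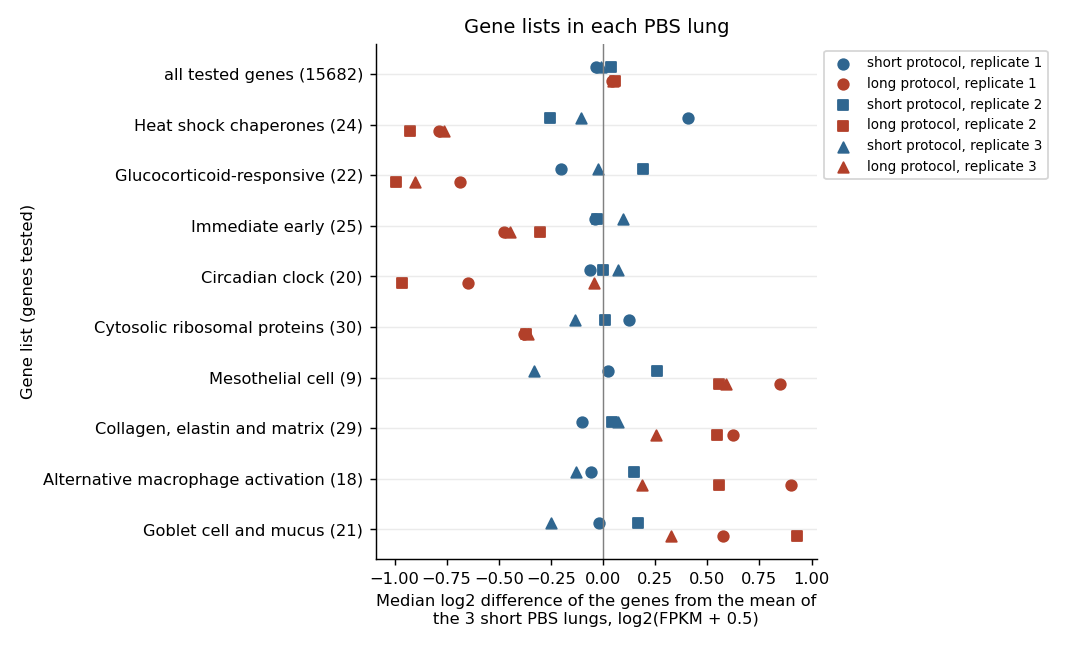
Median of each gene list in each PBS lung, as the log2 difference from the mean of the 3 short lungs, with long lungs in red, short lungs in blue and a symbol for each replicate. All long lungs lie left of all short lungs for chaperones, glucocorticoid-responsive, immediate early and ribosomal genes, and for clock genes long replicate 3, at -0.04, lies among the short lungs.

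The clock genes did not pass in any member (limma, 10 of 20 lower and 1 higher at an unadjusted p under 0.05, against 2.31% and 3.13% of all genes), and the long lungs differed widely among themselves. Dbp, an output factor of the clock, was at 4.87, 0.874 and 30.4 FPKM in long replicates 1, 2 and 3 and at 18.5, 22.4 and 24.5 FPKM in short lungs. Its activator Arntl was at 3.84, 6.72 and 1.31 FPKM against 0.897, 1.01 and 0.941 FPKM, and Npas2 at 2.09, 4.05 and 0.303 FPKM against 0.496, 0.570 and 0.654 FPKM. Long replicates 1 and 2 were thus high in the activating arm and low in Dbp, and long replicate 3 stood close to or beyond the short lungs in the other direction. Per2, a repressor of the loop, was at 18.6, 9.98 and 42.6 FPKM against 64.6, 56.3 and 64.6 FPKM (-1.60 ± 0.44, adjusted p = 0.220, limma).

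The 3 short lungs were close to each other in all of these genes. The median of the 20 clock genes against the short mean was -0.65, -0.96 and -0.04 in long replicates 1, 2 and 3. Without long replicate 3, which is 1 of the 6 libraries left out in turn, Dbp had -3.03 ± 0.40 (adjusted p = 0.00278, limma) and Per2 -2.14 ± 0.42 (adjusted p = 0.0403, limma). In that run 4 of the 20 passed, all lower, against 22 of 15682 genes that passed as lower. Without long replicate 2 the values were -0.78 for Dbp and -1.12 for Per2, and no clock gene passed on leaving out any of the other 5 libraries. With all PBS lungs kept, 2 clock genes passed as higher and 6 as lower with array weights (limma, 1107 and 548 over all genes). Without the 4 MCh libraries of low array weight these were 2 and 3 (820 and 393 over all genes). None passed in the fit of the 6 PBS libraries alone. With all libraries the differences were -1.86 ± 0.63 for Dbp and 1.41 ± 0.52 for Arntl (adjusted p = 0.485 and 0.584, limma). Per1, which both the clock and glucocorticoids drive, was at 21.04, 5.72 and 15.2 FPKM in long and 26.3, 33.2 and 31.97 FPKM in short lungs. In 6 of the 20 every long lung was below every short lung and in 2, Arntl and Clock, above, against 9.16% and 18.9% of all genes.

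Retnla (chromosome 16, 48842551 to 48844461), a secreted resistin-like protein, was at 1430, 1647 and 224 FPKM in long lungs and 128, 46.5 and 19.9 FPKM in short lungs. All long lungs were above all short lungs, yet long replicate 3 was nearer to short replicate 1 than to the other long lungs. Retnla rose by 4.02 ± 0.71 (log2, adjusted p = 0.0283, limma), or by 4.95 ± 0.66 without long replicate 3, and its values over the libraries left out ran from 3.38 to 4.95. Rnase2a (chromosome 14, 51255262 to 51256112), an eosinophil-associated ribonuclease, was at 8.72, 5.66 and 0.612 FPKM against 0.0593, 0.228 and 0.0657 FPKM. It rose by 2.70 ± 0.50 (log2, adjusted p = 0.0290, limma), or by 3.62 ± 0.32 without long replicate 3 and from 2.09 to 3.62 over the libraries left out, on a scale whose added 0.5 understates folds at such low levels. The ribonucleases of this family are alike in sequence, which leaves the assignment of reads among them uncertain.

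Neither gene passed without long replicate 1 or 2 or without short replicate 2 or 3. These were the 2 called genes among 18 of the alternative macrophage activation list, against 0.0191% of all genes called higher. Of the 18, 6 had every long lung above every short lung and none below (over all genes, 18.9% and 9.16%). The list's median was 0.57 (log2). The lectin Cd209e was at 1.81, 2.01 and 0.362 FPKM against 0.0356, 0.125 and 0.0388 FPKM (1.60 ± 0.37, adjusted p = 0.101, limma). Chil3, a chitinase-like protein of alveolar macrophages, was at 839, 509 and 152 FPKM against 196, 216 and 177 FPKM, so that long replicate 3 was the lowest of all 6. Its difference was 1.04 ± 0.38 (adjusted p = 0.6005, limma) with all libraries and 1.74 ± 0.25 (adjusted p = 0.00488, limma) without that replicate, but 0.51 without long replicate 1. Arg1, an arginase of the same macrophage state, was flat at 0.01 ± 0.42. The type 2 cytokine Il13 was at 0.0395, 0.122 and 0 FPKM in long lungs and listed at 0 in all short lungs.

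Eosinophil markers gave a mixed picture beside Rnase2a. The receptor Ccr3 was at 1.30, 1.58 and 0.839 FPKM in long and 0.0926, 0.227 and 0.361 FPKM in short lungs (1.25 ± 0.41, adjusted p = 0.427, limma). The granule genes Prg2 and Epx stayed under 1 FPKM in every PBS lung. The summed level of the 12 eosinophil markers was 84.1 to 129 FPKM in long and 80.6 to 103 FPKM in short lungs, and their part in the Rnase2a difference was not tested. Because gene values carry gene-specific multiples, such sums weight their genes unequally and are compared only between libraries.

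Goblet cell and mucus genes had higher levels in the long protocol without a call (limma, 4 of 21 higher at an unadjusted p under 0.05, against 3.13% of all genes). Clca1, a secreted goblet cell protein, was at 67.4, 73.3 and 9.83 FPKM against 7.85, 1.44 and 0.205 FPKM (4.05 ± 1.49, adjusted p = 0.599, limma). The anion exchanger Slc26a4 was at 7.76, 8.84 and 1.22 FPKM against 0.435, 0.624 and 0.143 FPKM (2.54 ± 0.59, adjusted p = 0.0924, limma). In both, long replicate 3 was far below the other long lungs, as it was for Retnla. Slc26a4 had 3.32 ± 0.54 (adjusted p = 0.0129, limma) without that replicate and 2.10 without long replicate 2, and no goblet gene passed on leaving out any of the other 5 libraries. With all PBS lungs kept, 5 of the 21 passed as higher with array weights (limma, 1107 over all genes). Without the 4 MCh libraries of low array weight 2 passed (820 over all genes), and in the fit of the 6 PBS libraries alone none did.

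The mucin Muc5b went otherwise, at 107, 129 and 134 FPKM in long and 19.7, 66.2 and 6.41 FPKM in short lungs, where the short lungs carried the spread (2.55 ± 0.87, adjusted p = 0.485, limma). Muc5ac, the mucin of allergen-exposed airways, was at 0.917, 1.55 and 0.418 FPKM against 0.136, 0.224 and 0.0238 FPKM. Of 21 listed genes 11 had every long lung above every short lung and none below, with a median of 0.52 (log2), against 18.9% and 0.05 over all genes. The goblet cell factor Spdef had -0.12 ± 0.58 with overlapping groups.

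**Figure D3:**
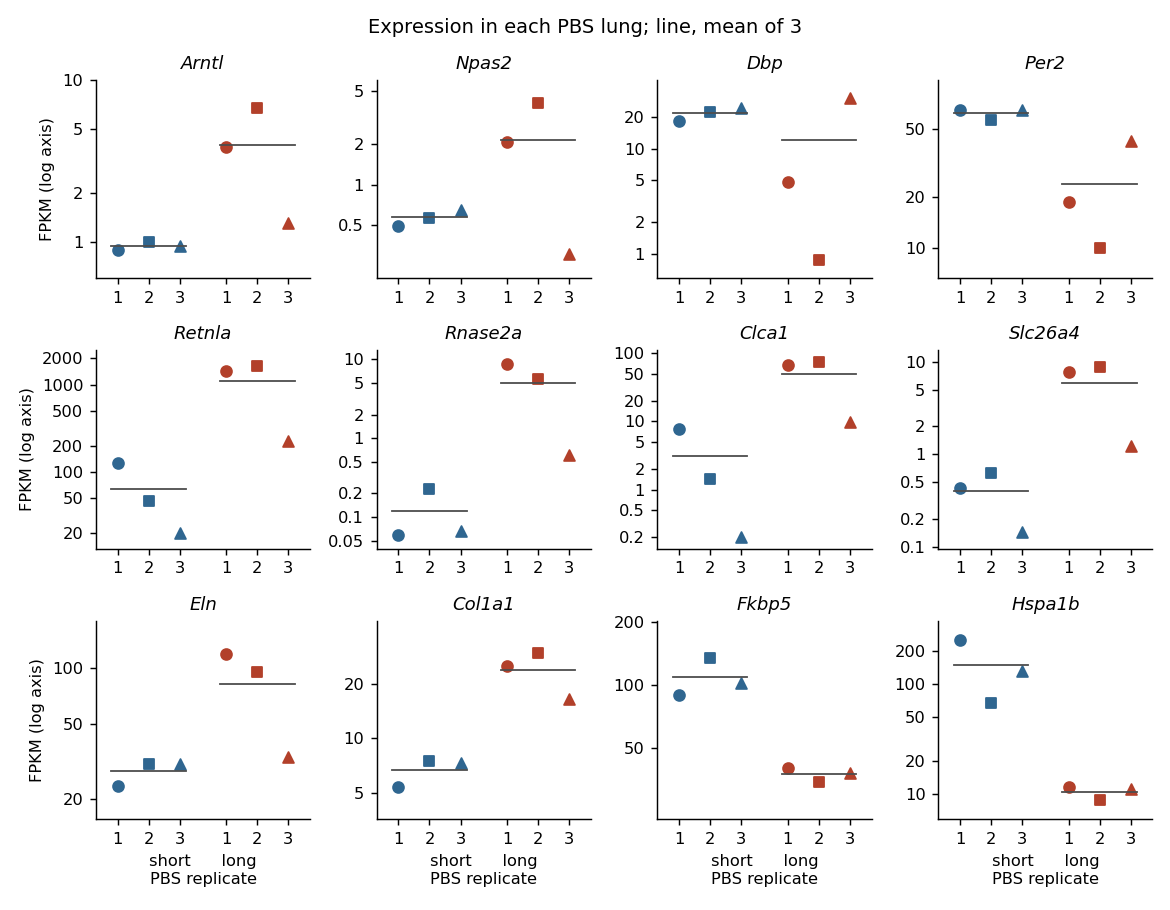
FPKM of 12 genes in each PBS lung on log axes, with short lungs in blue, long lungs in red, a symbol for each replicate and a line at the group mean. Long replicate 3 lies apart from long replicates 1 and 2 in Arntl, Npas2, Dbp, Per2, Retnla, Rnase2a, Clca1, Slc26a4 and Eln, and close to them in Fkbp5 and Hspa1b.

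Matrix genes had higher levels in the long lungs, again with no call among 29 (limma, 10 higher at an unadjusted p under 0.05, against 3.13% of all genes). Col1a1 (chromosome 11, start 94936224), the main fibrillar collagen chain, was at 25.04, 29.6 and 16.4 FPKM in long and 5.36, 7.502 and 7.26 FPKM in short lungs (1.72 ± 0.37, adjusted p = 0.0605, limma). Col3a1 was at 66.1, 65.8 and 32.7 FPKM against 21.005, 21.7 and 20.1 FPKM (1.30 ± 0.31, adjusted p = 0.107, limma). Loxl1, which cross-links elastin, came closest to the threshold at 1.06 ± 0.22 (adjusted p = 0.0518, limma). Fbn1, the microfibril protein fibrillin, was at 107, 114 and 63.3 FPKM against 32.2, 37.3 and 45.8 FPKM.

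In 15 of the 29 every long lung was above every short lung and in none below, against 18.9% and 9.16% of all genes, and the median was 0.48 (log2). Eln, elastin, was at 118, 94.4 and 33.6 FPKM against 23.5, 30.97 and 30.9 FPKM, so that long replicate 3 was only just above the short lungs. Without that replicate Eln, Col3a1, Fbn1 and Loxl1 passed, at 1.88 ± 0.31, 1.64 ± 0.31, 1.52 ± 0.30 and 1.27 ± 0.22 (adjusted p from 0.0129 to 0.0409, limma). In that run 12 of 15682 genes passed as higher. No matrix gene passed on leaving out any of the other 5 libraries, and Eln was at 0.98 without long replicate 1. With all PBS lungs kept, 14 of the 29 passed as higher with array weights (limma, 1107 over all genes). Without the 4 MCh libraries of low array weight 11 passed (820 over all genes), and in the fit of the 6 PBS libraries alone 3 passed (116 over all genes). The proteoglycans Bgn and Dcn, matrix genes of the same cells, had -0.001 ± 0.136 and -0.10 ± 0.37. Many matrix transcripts are long, and with each library's trend on transcript length removed the list's median was 0.37.

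Wt1 (chromosome 2, 105126529 to 105173616), a transcription factor of the mesothelium that lines the lung, was at 2.33, 2.66 and 2.35 FPKM in long and 0.663, 0.946 and 0.602 FPKM in short lungs. Both groups were tight, and Wt1 rose by 1.26 ± 0.25 (log2, adjusted p = 0.0431, limma), a call that was lost on leaving out any 1 of the 6 libraries (limma, adjusted p from 0.0721 to 0.283). Of the 9 mesothelial genes 7 had every long lung above every short lung and none below (18.9% and 9.16% of all genes), with a list median of 0.66. Msln, the mesothelial surface protein mesothelin, was at 253, 194 and 196 FPKM against 107, 148 and 73.3 FPKM (1.02 ± 0.63, adjusted p = 1, limma). The summed level of the list was 395 to 468 FPKM in long and 192 to 336 FPKM in short lungs. The part of mesothelial content in the Wt1 difference was not tested.

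Epithelial lists had smaller medians. Of 11 alveolar type 1 genes 5 had every long lung above every short lung, against 18.9% of all genes, among them Akap5 at 784, 914 and 704 FPKM against 336, 383 and 400 FPKM (1.10 ± 0.24, adjusted p = 0.0659, limma) and the water channel Aqp5 at 144, 138 and 138 FPKM against 94.2, 96.6 and 89.6 FPKM (0.58 ± 0.14, adjusted p = 0.131, limma). Ager, the receptor that marks these cells, was at 0.001 ± 0.152. Of 14 surfactant genes 5 lay above and 3 below without overlap, against 18.9% and 9.16% of all genes, Sftpc being at 4737, 4592 and 4737 FPKM in long and 6404, 5578 and 5341 FPKM in short lungs (-0.30 ± 0.24). None of these lists had a called gene. With array weights 4 of the 11 type 1 genes passed as higher (limma, 1107 over all genes), and in the fit of the 6 PBS libraries alone 3 did (116 over all genes).

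Among club cell and xenobiotic enzymes no gene was called (limma, 3 of 10 and 6 of 22 lower and 1 of the 22 higher at an unadjusted p under 0.05). Over all genes these shares were 2.31% lower and 3.13% higher. Cbr2, a carbonyl reductase of club cells, was at 3055, 2739 and 4368 FPKM against 5702, 5431 and 4691 FPKM (-0.66 ± 0.21, adjusted p = 0.405, limma), and the carboxylesterase Ces1d at 349.8, 333 and 406 FPKM against 519, 516 and 510.1 FPKM (-0.51 ± 0.12, adjusted p = 0.0924, limma). In 10 of 22 genes of the P450 and xenobiotic list every long lung was below every short lung, and in 2 above, against 9.16% and 18.9% of all genes, with a median of -0.34. Scgb1a1, the secretoglobin that defines club cells, had -0.10 ± 0.32 with overlapping groups.

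No cytosolic ribosomal protein gene was called, but 25 of 30 passed as lower with array weights (limma, 548 over all genes). Without the 4 MCh libraries of low array weight 23 passed (393 over all genes), and in the fit of the 6 PBS libraries alone 1 did (52 over all genes). In 29 of 30 every long lung was below every short lung, against 9.16% of all genes and 470 of 3119 in the shortest length group. The list's median was -0.37 (limma, 5 lower at an unadjusted p under 0.05, against 2.31% of all genes). The most negative value was that of Rps19, -0.51 ± 0.22 (adjusted p = 0.800, limma), and the exception was Rps27. These transcripts are among the shortest. Over all 15594 genes with a known length the difference between long and short PBS followed transcript length (Spearman rho 0.287 across genes, which are not independent replicates). With each library's length trend removed the ribosomal median was -0.32, and 47 genes passed, 11 higher and 36 lower, including 25 of the 26.

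**Figure D4:**
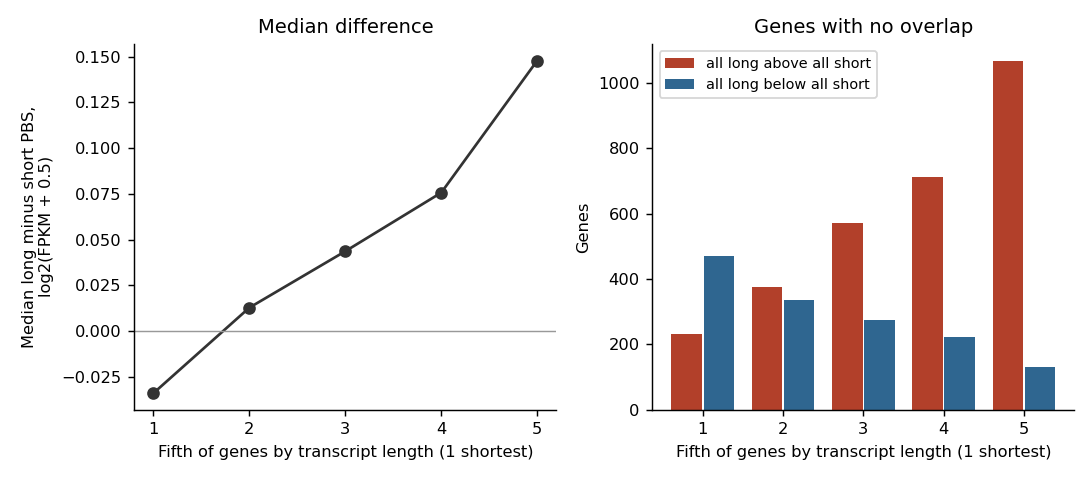
Tested genes in 5 equal groups by transcript length. The left plot gives the median long minus short PBS difference, from -0.03 in the shortest group to 0.15 in the longest, and the right plot counts genes whose long lungs all lie above (red, 233 to 1065 genes) or all below (blue, 470 to 131 genes) the short lungs.

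Of 46 gene lists with tested members, 39 had no called gene, where 0.166% of all genes were called. They included T cells, B cells, natural killer cells and the cell cycle. In these no gene had groups without overlap, against 18.9% above and 9.16% below over all genes. Short replicate 2 stood apart in lymphocyte markers. B cell genes summed to 40.8, 241.5 and 37.8 FPKM in short replicates 1 to 3 and 61.7 to 116.5 FPKM in long lungs. T cell genes summed to 37.6, 106.9 and 41.9 FPKM against 48.2 to 56.3 FPKM in long lungs. Heart muscle genes had a median of -1.44 with no call. Their summed level was 67.4, 95.9 and 326 FPKM in long and 401, 637 and 167 FPKM in short lungs, so the groups overlapped. Erythroid genes summed to 2971 to 6985 FPKM in long and 5068 to 14670 FPKM in short lungs, and the part of blood content in the differences above was not tested. Markers of thyroid, oesophagus and cartilage summed to 1.51 FPKM or less in every PBS lung.

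The long against short contrast was also read in the MCh and OVA lungs, which share no library with PBS. Each gene's spread was pooled over all 22 libraries, however. A gene of small pooled spread passes more easily in every contrast, so calls in MCh or OVA are not independent of those in PBS. Of the 23 genes lower in long PBS, 21 had a negative difference in MCh and 6 were called lower there (Arl4d, Klf2, Ahsa1, Arl4a, Hspe1 and Nfkbia), while over all genes 58.6% had a negative sign and 1.97% were called lower. Long MCh libraries a and c and short MCh library 1 listed 28.3% to 34.3% of genes at 0, and these with short MCh library 4 had array weights under 0.25. Without those 4 libraries 22 of the 23 were negative, against 46.5% of all genes, and 3 were called lower (Arl4d, Arl4a and Nfkbia), against 0.051%. The median of the 23 was -1.13 in PBS, -0.52 in MCh and -0.23 in OVA. The 23 were chosen by their PBS difference, which overstates the PBS median, so these medians cannot rank the aerosols.

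In OVA 21 of the 23 were negative and 6 were called lower (Angptl4, Fkbp5, Ahsa1, Cct7, Hspe1 and Nfkbia), where 43.4% of all genes were negative and 12.0% were called lower. Nfkbia had -0.84 ± 0.17, -0.76 ± 0.15 and -0.99 ± 0.15 in PBS, MCh and OVA. Hspa1b had -3.57 ± 0.58, -1.12 ± 0.50 and -0.48 ± 0.50 in the same order. In FPKM Hspa1b ran from 8.88 to 11.7 in long PBS, 19.9 to 93.1 in long MCh and 35.99 to 70.4 in long OVA, so the long PBS lungs were the lowest of the 3 long groups, while the short groups overlapped. Fkbp5 was at 34.3 to 40.2 FPKM in long PBS, 43.6 to 55.6 in long OVA and 103 to 179 in long MCh.

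Retnla had 4.02 ± 0.71 in PBS, -1.52 ± 0.62 in MCh and -2.89 ± 0.62 in OVA. The PBS and OVA values passed, in opposite directions, and the MCh value did not. Without the 4 low-weight libraries the MCh value was -0.18 ± 0.83. Retnla ran from 224 to 1647 FPKM in long PBS, 41.2 to 111 in long MCh and 2193 to 4965 in long OVA. Wt1 was positive in all 3, at 1.26 ± 0.25, 0.65 ± 0.22 and 0.72 ± 0.22, and passed in PBS and OVA (adjusted p = 0.0826 in MCh and 0.0182 in OVA, limma). The test of MCh against PBS protocol differences called no gene of 15682 (limma, 989 or 6.31% at an unadjusted p under 0.05), and with array weights it called 1. A missed threshold there does not show that the PBS and MCh differences were alike: for Retnla the difference was -5.55 ± 0.94 (adjusted p = 0.162, limma).

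**Figure D5:**
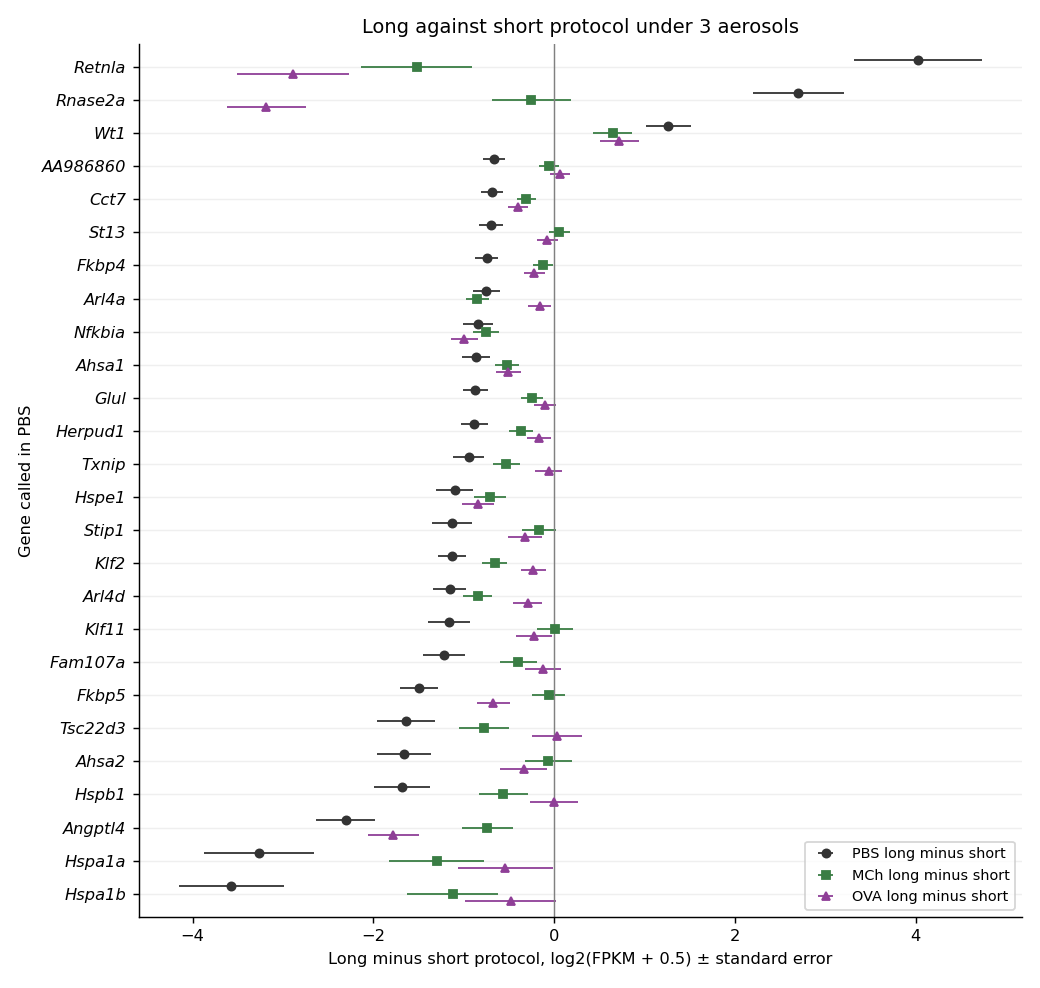
Long minus short difference of the 26 called genes on the log2(FPKM + 0.5) scale with standard errors, for PBS in black, MCh in green and OVA in purple. The PBS values of Retnla and Rnase2a lie right of 0 and their OVA values left of it, and for Nfkbia and Arl4a the PBS and MCh values lie within 0.10 of each other.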

How the data were processed

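Per the labels' protocols, lung RNA (RNeasy, DNase I) of BALB/c mice went into TruSeq Stranded Total RNA libraries. Gene-level FPKM (20938 rows) and transcript-level FPKM (36844 rows) of 22 libraries were made and deposited by the authors. The submitters' processing notes name Trim Galore, STAR, DESeq2 and the build mm10, and the program that gave FPKM is not given in the sources used here. For genes with 1 transcript the gene value was a fixed multiple of the transcript value in every library, from 0.0419 to 22.4 over 5717 genes (median 0.995), so levels are not compared between genes. Low values implied 21.5 to 25.5 fragments for a kilobase at 1 FPKM in the PBS libraries, but 37.4% to 43.5% of them lay within 0.08 of a whole fragment, and counts were not recovered; depth is otherwise unknown.

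The test took the 15682 genes that reached 0.1 FPKM in 3 or more libraries. On the scale log2(FPKM + 0.5), limma 3.58.1 in R 4.3.3 fitted 1 coefficient per group over all 22 libraries, with an intensity trend, two-sided p-values and the Benjamini-Hochberg method across those genes, separately in each of 5 contrasts. Genes under an adjusted p of 0.05 are called. Differences are log2 ± SE with n = 3 and 3 for PBS and n = 4 and 4 for MCh and OVA. Columns of long MCh and long OVA name a group but no replicate number, and are called a to d. The sample labels name lung where the series text names trachea, and the labels were followed.

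The comparison, the 48 gene lists (804 of 833 symbols found in the table) and the genes to name were chosen with earlier results of these data known. Genes named were the 10 largest called changes in each direction at FPKM of at least 1, filled up with genes of smallest p and no overlap, up to 4 genes per list by p, and a set of key genes; list members beyond these and the other called genes were named after their values were seen. The alternatives changed the pseudocount (0.1 and 1), the filter (FPKM 1, none), the scaling (median-of-ratios, quantile), array weights, robust eBayes, transcript sums, the libraries in the fit, a 2-fold limit, a replicate block and a length trend (known length for 99.4% of tested genes). Leaving out the 4 libraries of array weight under 0.25 was chosen after seeing the data. In simulated data for the PBS comparison 64% of genes changed by a log2 of 1 and 92% of those changed by 2 were recovered among 15682, with 15 false calls. The simulation gave a gene the same spread in every library and changed only genes above a minimum mean level. Array weights of the real libraries ran from 0.0664 to 5.44, so these rates need not hold for the data. Gene positions are those of GENCODE M21 on mm10, and promoters are RefSeq sequences on GRCm38.p6.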

Additional observations from a re-analysis of the deposited data

Results flagged for a closer look

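The long minus short difference of 9 genes called in PBS differed between the OVA and the PBS lungs by the interaction in limma (Benjamini-Hochberg adjustment over 15682 genes, of which 295 or 1.88% passed). The difference was lower in OVA for Retnla by -6.91 ± 0.94 (adjusted p = 0.000318) and for Rnase2a by -5.89 ± 0.67 (adjusted p = 3.68e-05). It was higher in OVA for the chaperones Hspa1b by 3.09 ± 0.77 (adjusted p = 0.0419) and Hspb1 by 1.68 ± 0.41 (adjusted p = 0.0362). Among genes known as glucocorticoid-induced it was higher for Tsc22d3 by 1.67 ± 0.43 (adjusted p = 0.0475), Txnip by 0.89 ± 0.23 (adjusted p = 0.0496) and Glul by 0.78 ± 0.18 (adjusted p = 0.0314), and further for Klf2 by 0.90 ± 0.21 (adjusted p = 0.0276) and AA986860 by 0.73 ± 0.16 (adjusted p = 0.0222). The genes were chosen by their PBS difference, which enters this contrast, so the contrast is not independent of that choice. Groups of 3 lungs are too small for the test of single outlying samples, which was not run on them.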

How the results depend on the processing

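With 3 lungs a group, each PBS count rests on single libraries, and FPKM without counts gives no error per value. Age, exposure number and collection cannot be told apart. For long against short PBS the 26 calls became 49 with quantile scaling, 1655 with array weights (1107 higher, 548 lower), 168 in a fit of PBS alone (116 higher, 52 lower), 150 without the 3 libraries with most genes at 0 (64 higher, 86 lower), 1213 without the 4 of low array weight (820 higher, 393 lower), 16 at 2-fold or more, and 47 with the length trend removed. Leaving out each library gave 0 to 34. The low pseudocount, the high one, both filters, median-of-ratios, robust eBayes and transcript sums gave 22 to 34. All 26 were called again with array weights and without the sparse or low-weight libraries, and 16 in the fit of PBS alone. Replicate numbers did not pair the lungs (correlations 0.010, -0.006 and -0.060), and with a replicate block 5 genes passed, 1 higher and 4 lower. That run also left out the long MCh and long OVA libraries, which carry no replicate number. The part of the block itself therefore cannot be told apart from their loss.

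For long against short MCh the 507 calls became 336 with no filter, 1356 with array weights, 2 in a fit of MCh alone, 4 without the sparse and 32 without the low-weight libraries, 104 at 2-fold, and 36 to 1406 leaving out 1 library. The MCh minus PBS difference had 0 calls, 1 with array weights, 2 without the low-weight libraries and 0 to 6 leaving out 1 library. Among single named genes, none of them called, the sign turned for Sftpc at 0.27 with quantile scaling, Scgb1a1 at 0.00885 with the length trend removed, Nr1d1 at 0.0115 without long replicate 2 (-0.751 to 0.0115 over the libraries left out), and Ager at -0.0612 with median-of-ratios, -0.0267 with array weights and -0.10 to 0.117 leaving out libraries. The cause of these changes was not tested.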

Other observations

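Mdm4, a regulator of p53, was at 19.4, 23.3 and 139 FPKM in long replicates 1, 2 and 3 and at 99.3, 125 and 122 FPKM in short lungs, and its forms NM_001302801 and NM_001302803 showed the same split. Hba-a1, an alpha globin with the near-identical copy Hba-a2, was at 851, 843 and 0.0967 FPKM in long and 2513, 2146 and 1959 FPKM in short lungs, while Hba-a2 was at 1584, 2874 and 2212 FPKM against 4837, 564 and 4005 FPKM. Jund, an immediate early gene, was at 10.1, 11.0 and 0.436 FPKM in long and 12.9, 11.2 and 13.3 FPKM in short lungs. Long replicate 3 lay inside the range of the short lungs with the other 2 long lungs outside it on 1 side in 717 genes above and 522 below, against 637 and 346 for long replicate 1 and 567 and 422 for long replicate 2. Of the 20 clock genes 5 (Cry2, Tef, Hlf, Ciart and Bhlhe40) showed this for replicate 3 and none for the other 2.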
